A study of Mus musculus with 13 samples.

Results

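The genes of threonine breakdown, glycine cleavage and the folate-linked one-carbon pathway were followed through the last step of reprogramming in mouse cells with and without Kdm3b. They are 9 of the 20325 genes in the deposited files, chosen by symbol: Tdh, Gcat, Gldc, Amt, Shmt1, Shmt2, Mthfd1, Mthfd1l and Mthfd2. Single-end RNA sequencing had been made from pre-iPSCs, cells derived from mouse embryonic fibroblasts (MEFs) that stalled on the way to induced pluripotency. The cells were wild-type (WT) or carried a knockout (KO) of Kdm3b, which encodes a demethylase of histone H3 lysine 9. Both genotypes were grown in serum and LIF and were sampled at day 0, day 2 and day 10 of ascorbic acid with the GSK3 inhibitor CHIR-99021 and the MEK inhibitor PD-0325901, together AA+2i, with cultures split on day 4. Each of the 6 groups had 2 libraries, lettered A and B, and 1 library came from V6.5 embryonic stem cells (ESCs). Day 0 libraries are titled DMSO although their treatment label names AA+2i, and they were read as the untreated start. The ESC library carries the same treatment label at time 0, so its medium is uncertain. The labels do not give the number of KO clones or the deleted part of the gene, nor do they say whether A and B were separate cultures, so the p-values measure the spread between these libraries, which may be technical.

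Mitochondria of mouse pluripotent cells can break threonine down in a pair of steps: Tdh, threonine dehydrogenase, oxidises it, and Gcat splits the product into glycine and acetyl-CoA. The glycine cleavage system then takes glycine apart and hands its carbon to tetrahydrofolate; Gldc is its decarboxylase (P protein), Amt its aminomethyltransferase (T protein), Gcsh the lipoyl carrier (H protein) and Dld the dihydrolipoyl dehydrogenase (L protein). Shmt1 in the cytosol and Shmt2 in mitochondria interconvert serine and glycine and load the same folate. Mthfd2 and Mthfd1l carry the folate-bound carbon to formate in mitochondria, and Mthfd1 uses it in the cytosol for purines, thymidylate and methionine. High Tdh expression and dependence on threonine are known features of mouse ESCs.

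Library totals ran from 14891294 to 26430050 expected counts. Kdm3b itself stood at 146 to 261 CPM (counts scaled to the library total) in the 6 WT libraries and at 17.7 to 65.5 CPM in the 6 KO libraries, with no overlap. KO was lower by a log2 fold change of -1.98 at day 0, -2.71 at day 2 and -2.67 at day 10 (edgeR FDR 0.0132, 0.00302 and 0.00121); the first had FDR 0.0901 without WT day 0 B and 0.0955 without KO day 0 A, and the first and second had FDR 0.0774 and 0.0532 in fits on the compared libraries alone. At days 0 and 2 the letters differed in a shared way: genes of libraries A had a count-weighted mean transcript length of 2986 to 3135 bases and those of libraries B 3716 to 3921 bases, against 3325 to 3437 bases at day 10. Gcat, Shmt1, Mthfd1 and Mthfd2 were lower in B than in A of each day 0 and day 2 group, and Gldc, Amt, Shmt2 and Mthfd1l higher; at day 10, of these, only Mthfd1 and Mthfd2 had B below A in both genotypes. Day 10 and that change in library make-up cannot be told apart. Of 10 pluripotency markers, 10 reached 10 CPM in both WT day 10 libraries and in the ESC library, and 6 did so in both KO day 10 libraries. At days 0 and 2, 3 and 6 did so in WT, and 2 and 4 in KO. Summed CPM of the list was 4813 to 9793 in WT and 4703 to 10895 in KO at day 0. At day 10 it was 5361 to 5988 in WT and 3664 to 4513 in KO, with 5902 in ESCs.

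The 250 bases before the RefSeq start site (GRCm38.p6) are shown for the members that rose together in WT at day 10 and had an entry; 8 of the 9 members were matched, all except Tdh. Each sequence is written 5′ to 3′ on the gene's own strand, with every CG dinucleotide in capitals. The Gldc window lies at chr19:30175442-30175691 (minus strand), the Amt window at chr9:108296655-108296904 (plus strand) and the Mthfd2 window at chr6:83317605-83317854 (minus strand).
Gldc: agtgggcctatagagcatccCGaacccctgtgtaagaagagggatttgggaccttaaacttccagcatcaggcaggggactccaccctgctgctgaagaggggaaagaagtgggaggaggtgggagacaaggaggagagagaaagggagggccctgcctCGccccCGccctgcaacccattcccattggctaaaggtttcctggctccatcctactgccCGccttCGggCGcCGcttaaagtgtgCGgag
Amt: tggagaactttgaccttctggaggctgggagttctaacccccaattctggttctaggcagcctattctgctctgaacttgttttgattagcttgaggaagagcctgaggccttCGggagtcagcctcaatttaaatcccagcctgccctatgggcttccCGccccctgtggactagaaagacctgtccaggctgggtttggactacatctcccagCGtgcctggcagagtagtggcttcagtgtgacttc
Mthfd2: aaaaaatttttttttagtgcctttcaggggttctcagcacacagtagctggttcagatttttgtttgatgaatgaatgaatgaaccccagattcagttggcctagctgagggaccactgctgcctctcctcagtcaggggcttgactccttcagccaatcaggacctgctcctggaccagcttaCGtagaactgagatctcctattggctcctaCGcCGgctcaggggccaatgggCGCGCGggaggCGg
The Amt window holds 3 CG dinucleotides, an observed-to-expected ratio of 0.167. The Gldc window holds 8 (ratio 0.363) and the Mthfd2 window 7 (ratio 0.408), against medians of 6 and 0.374 over 32851 windows of the same length. Gcat (0.730), Mthfd1 (0.714), Shmt2 (0.673) and Shmt1 (0.580) had the higher ratios among the members. The letters TGATGNAA, a core of elements bound by ATF4 with C/EBP factors, and CACGTG, an E-box, were searched on both strands; they occur in 3.45% and 6.02% of all windows and in 0 of the 8 windows of the members.

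On the deposited TPM scale, which counts transcripts per length and so allows genes to be compared, the 9 members summed to 689 to 1154 TPM in a library. Mthfd1 held the highest level in 9 of the 13 libraries; Tdh did so in WT day 2 B and in both WT day 10 libraries, at 279, 267 and 332 TPM, and Shmt2 did so in KO day 2 B, at 344 TPM. The bottom of the order was held by Gldc or Amt in every library, but their distance from the rest was not constant. Gldc and Amt together made up 16.9% (A) and 16.8% (B) of the summed TPM in WT at day 10 and 19.3% in ESCs. In the other 10 libraries they made up 0.970 to 3.07%. Within the pair, Amt was above Gldc in WT at day 10, at 135 and 144 TPM against 48.8 and 50.1 TPM, and below it in ESCs, at 52.6 against 140.2 TPM.

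**Figure D1:**
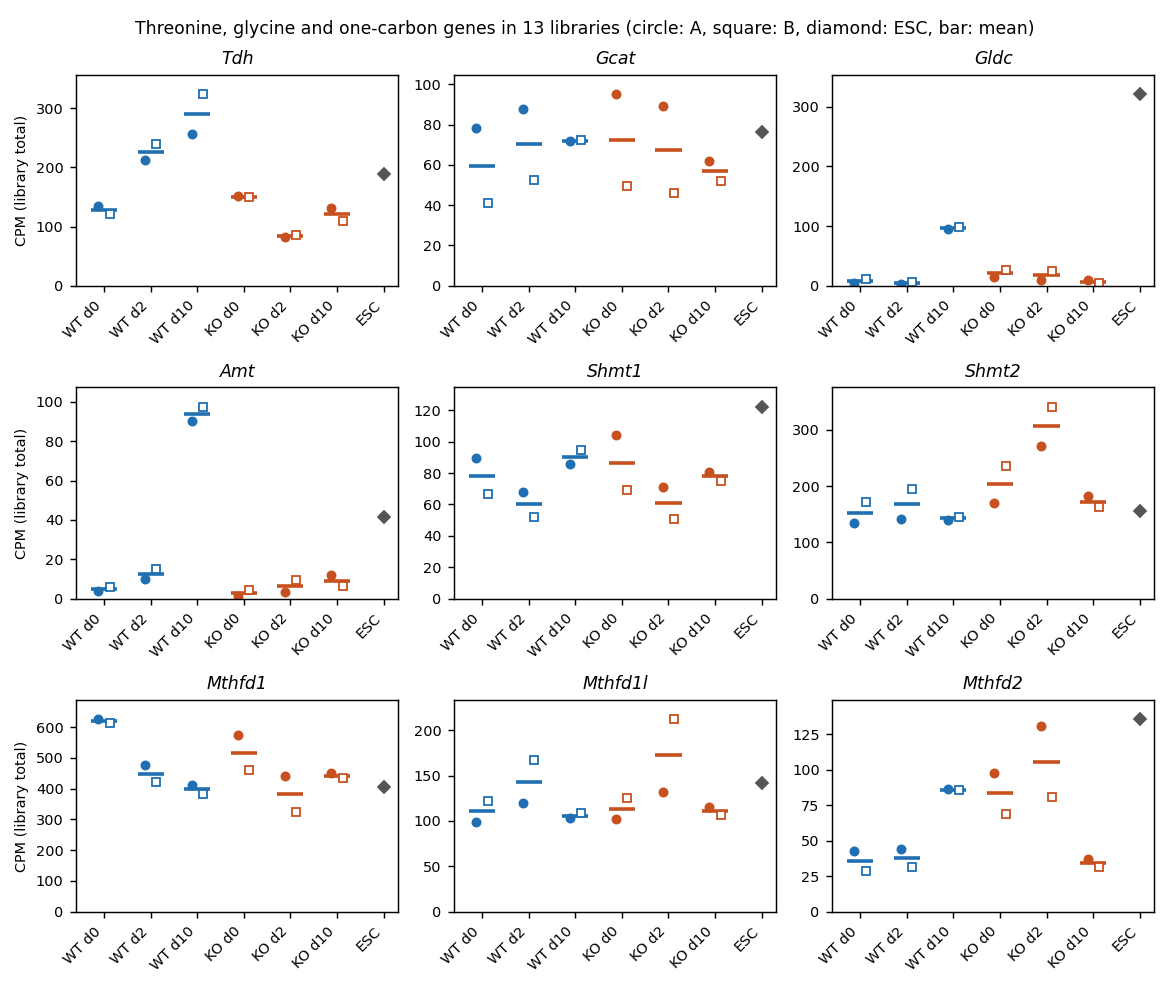
Level of each member in each library, as CPM of the library total on linear axes from 0; circles are replicate A, squares replicate B, diamonds the single ESC library and bars the mean of 2 libraries. Tdh, Gldc, Amt and Mthfd2 are higher in both WT day 10 libraries than in both KO day 10 libraries. Gcat and Shmt1 are as well, by less, but differ as much between letters at days 0 and 2 as between groups. Shmt2 and Mthfd1 are higher in both KO day 10 libraries than in both WT day 10 libraries.

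All 9 members passed the filter on low counts and were tested in a single edgeR fit of 14324 genes. A gene was called changed where its false discovery rate (FDR, Benjamini-Hochberg over all genes tested) was under 0.05. That fit left the shared A and B difference at days 0 and 2 unadjusted. Member counts here and below come from it unless a block is named. A fit with a block for that difference called more members in every comparison, and more of all genes tested, as given in the closing section. In WT between day 0 and day 10, Tdh, Gldc, Amt and Mthfd2 rose, that is 4 of 9 members, where 21.0% of all genes tested were called higher; 0 members fell, where 13.1% of all genes were called lower. From day 2 to day 10 in WT, Gldc, Amt and Mthfd2 rose (3 of 9, background 18.3% higher) and 0 fell (background 11.2% lower). From day 0 to day 2 in WT, 0 members were called, with 2 of 9 at an unadjusted p under 0.05 (background 3.32% higher and 1.98% lower).

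In KO the called changes went down in the fit without the block. With the block, calls in KO went in both directions, as given below for each member. Between day 0 and day 2 only Tdh was called, and it fell (1 of 9, background 2.37% lower, with 4.02% of all genes called higher). Between day 0 and day 10 only Mthfd2 was called, and it fell (1 of 9, background 5.19% lower and 9.93% higher), and between day 2 and day 10 Mthfd2 again was the 1 member called, lower (background 0.607% lower and 2.49% higher). These pairs of comparisons share libraries and do not count as separate evidence.

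Between genotypes, 0 members were called at day 0 in the fit without the block, with 3 of 9 at an unadjusted p under 0.05 (background 2.69% higher and 5.59% lower in KO). Calls with the block are given below by member. At day 2 Shmt2 and Mthfd2 were higher in KO (2 of 9, background 4.29%) and Tdh was lower (1 of 9, background 6.16%). At day 10 Tdh, Gldc, Amt and Mthfd2 were lower in KO (4 of 9, background 19.9%) and 0 were higher (background 12.4%). The interaction, which tests whether the change from day 0 differed between genotypes, called 0 members at day 2 (1 of 9 at an unadjusted p under 0.05, background 0.126% higher and 0.0698% lower). At day 10 it called Tdh, Gldc and Mthfd2, all rising in WT and with a negative log2 fold change in KO, where of the 3 only that of Mthfd2 was itself called (3 of 9, background 6.20% lower), and 0 in the other direction (background 6.35%). The comparison of genotypes at day 10 and the change within WT share the WT day 10 libraries. The median log2 fold change of the 9 members was 0.19 in WT from day 0 to day 10 and -0.29 in KO against WT at day 10, beside -0.03 and -0.02 over all genes tested.

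**Figure D2:**
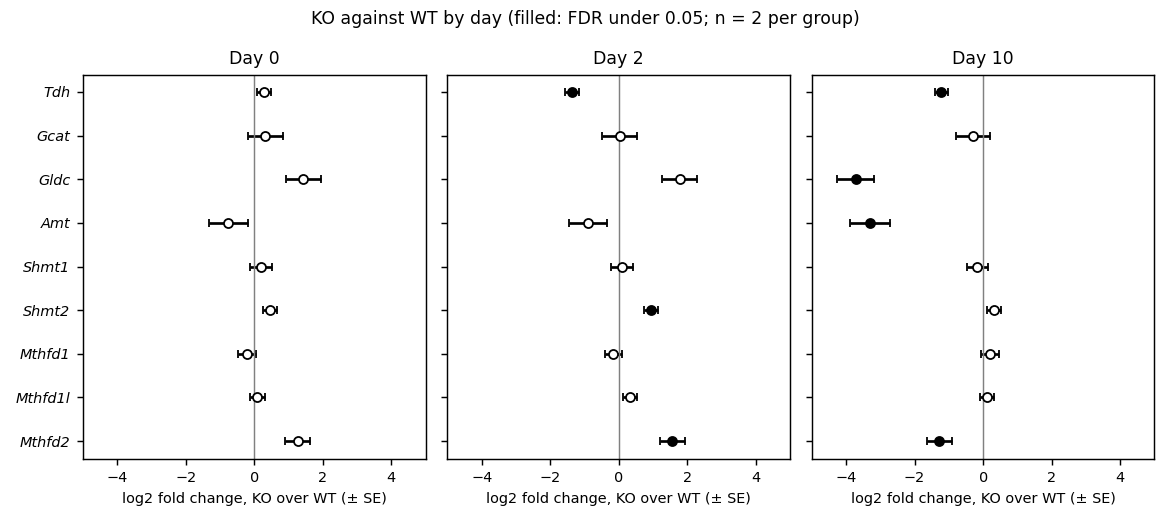
Log2 fold change of KO over WT for the 9 members at days 0, 2 and 10, with the standard error (SE) of the fit over 2 libraries per group; filled points have an FDR under 0.05. Mthfd2 lies at 1.27 and 1.56 at days 0 and 2 and at -1.29 at day 10, and Gldc at 1.43, 1.78 and -3.72.

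Tdh, the first enzyme of threonine breakdown, stood at 135 (A) and 121 (B) CPM in WT at day 0, at 212 and 240.3 CPM at day 2 and at 256 and 325 CPM at day 10. In KO it stood at 152 and 149 CPM at day 0, at 81.7 and 85.9 CPM at day 2 and at 132 and 109 CPM at day 10. The WT values climbed away from the KO values after day 0, and from day 2 on the lowest WT library was above the highest KO library. The WT change to day 10 was a log2 fold change of 1.12 ± 0.19 (SE; FDR 0.00241). The change from day 0 to day 2 was 0.78 in WT (FDR 0.0551), a value called once the shared A and B difference was blocked at days 0 and 2 (0.79, FDR 4.2e-04), in a fit that called 4318 genes there where the fit without the block called 759. In KO the fall to day 2 was -0.86 ± 0.19 (FDR 0.0326). KO was below WT by -1.36 ± 0.20 at day 2 (FDR 0.00307) and by -1.22 ± 0.20 at day 10 (FDR 0.00184), that is 2.57-fold and 2.33-fold lower.

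With that block, Tdh was also called from day 2 to day 10 in WT (0.33, FDR 0.0362) and in KO (0.48, FDR 0.0129), and from day 0 to day 10 in KO (-0.38, FDR 0.0266).

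At day 0 the genotypes differed in Tdh by 0.28 ± 0.19 (FDR 0.560). The interaction was -1.50 ± 0.27 at day 10 (FDR 0.00858) and -1.64 ± 0.27 at day 2 (FDR 0.0687, or 1.2e-04 with the block). The fall of Tdh in KO at day 2 was the least firm of these calls: a fit on the 4 libraries compared gave FDR 0.422, and leaving out any 1 of WT day 2 A or B, WT day 10 B, or any of the 6 KO libraries gave FDR 0.0501 to 0.158, with log2 values of -0.80 to -0.91. The difference at day 2 also missed the threshold in the fit on those groups alone (FDR 0.0847). In the current annotation 66 bases of Tdh exons lie opposite the antisense gene Gm17232, and since the strand setting of the counting is not given in the sources used here, reads of the pair cannot be told apart.

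Gcat, which completes the same reaction sequence, followed the library letter instead. It stood at 78.4 (A) and 41.0 (B) CPM in WT at day 0, at 87.6 and 52.6 CPM at day 2 and at 71.7 and 72.4 CPM at day 10. In KO it stood at 95.3 and 49.3, 89.1 and 46.1, and 62.0 and 51.9 CPM on the same days. Library B held 0.517 to 0.601 times the level of library A in the 4 groups of days 0 and 2. Without the block no comparison called Gcat; its log2 fold changes ran from -0.62 (the day 10 interaction) to 0.32, with an SE near 0.50 for a pair of groups. With the block at days 0 and 2, Gcat was called in KO against WT at day 0 (0.32, FDR 0.0251) and at day 10 (-0.29, FDR 0.0223). The block leaves day 10 libraries unadjusted and the day 10 value was the same without it. That call came through the spread estimate shared by all groups. Gcat was also called with the block from day 0 to day 10 in WT (0.29, FDR 0.0236) and in KO (-0.33, FDR 0.0156), and in the day 10 interaction (-0.62, FDR 0.00323). Its exons share 363 bases with Galr3 on the same strand, so counts between these genes are uncertain.

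Gldc spanned the widest range of the members, 96.3-fold between its lowest and its highest library in CPM, the highest being the single ESC library. Over the pre-iPSC libraries alone Amt had the wider fold range, at 1.26 to 97.6 CPM against 3.34 to 99.1 CPM for Gldc. Gldc stood at 5.45 and 11.0 CPM in WT at day 0, at 3.34 and 7.09 CPM at day 2 and at 94.7 and 99.1 CPM at day 10. In KO it stood at 15.5 and 27.1 CPM at day 0, at 10.0 and 24.4 CPM at day 2 and at 9.12 and 5.15 CPM at day 10, and the ESC library held 321 CPM. Both WT day 10 libraries were thus above every other pre-iPSC library, and still below the ESC library. The WT rise was 11.5-fold from day 0 (log2 3.52 ± 0.54, FDR 0.00123) and 18.5-fold from day 2 (log2 4.21, FDR 8.5e-04). KO at day 10 was 13.2-fold below WT (log2 -3.72 ± 0.54, FDR 0.00123), and the day 10 interaction was -5.15 ± 0.74 (FDR 0.00303).

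Before day 10 the order of the genotypes in Gldc was the reverse: both KO libraries lay above the WT libraries at day 0 and at day 2, by 1.43 ± 0.50 (FDR 0.140) and 1.78 ± 0.51 (FDR 0.0629). These differences were not called in the fit without a block; with the block at days 0 and 2 they were (FDR 3.4e-05 and 1.0e-05), in a fit that called 4360 and 5252 genes in all where the fit without it called 1187 and 1498. Single libraries moved both values: the day 0 difference was 1.01 without KO day 0 B and 1.03 without WT day 0 A (FDR 0.504 and 0.549), and the day 2 difference was 1.05 without KO day 2 B and 1.37 without WT day 2 A (FDR 0.368 and 0.329), while without KO day 2 A it was 2.25 and called (FDR 0.0391). KO values were lower at day 10 than at day 0 by -1.63 ± 0.51 (FDR 0.0654, and 1.5e-05 with the block), with a range of -2.09 to -1.20 and of FDR 0.0444 to 0.365 over the 12 fits that leave out 1 library. With the block, Gldc was also called lower from day 0 to day 2 in WT (-0.70, FDR 0.0221) and from day 2 to day 10 in KO (-1.20, FDR 4.9e-04).

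Amt, which takes over the aminomethyl group left by Gldc, shared the day 10 rise in WT. It stood at 3.75 and 5.71 CPM at day 0, at 9.92 and 15.0 CPM at day 2 and at 90.0 and 97.6 CPM at day 10. In KO it stood at 1.26 and 4.22 CPM, then 3.45 and 9.54 CPM, then 11.8 and 6.48 CPM, and the ESC library held 41.3 CPM. Both WT day 2 libraries were above both WT day 0 libraries, by 1.37 ± 0.56 (FDR 0.241, or 0.00153 with the block), and at day 10 WT was above the ESC library. The WT change from day 0 to day 10 was 19.2-fold (log2 4.27 ± 0.61, FDR 9.0e-04), and from day 2 to day 10 it was 7.45-fold (FDR 0.00539). KO at day 10 was 9.93-fold below WT (log2 -3.31 ± 0.58, FDR 0.00287).

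In KO, Amt at day 10 was above day 0 by 1.71 ± 0.58 (FDR 0.0854, or 2.5e-04 with the block). Its day 10 interaction was -2.56 ± 0.80 and missed the threshold (FDR 0.0720, or 2.3e-04 with the block). Leaving out 1 library gave interactions from -3.13 (without KO day 0 A, FDR 0.0322) to -1.47 (without KO day 0 B, FDR 0.323), with FDR under the threshold in 2 of the 12 such fits, the other being that without KO day 2 A (-2.53, FDR 0.0474). The KO change from day 0 ran from 1.11 without KO day 0 A (FDR 0.276) to 2.78 without KO day 0 B (FDR 0.0456). With the block, Amt was also called higher from day 0 to day 2 in KO (1.22, FDR 0.00937) and lower in KO than in WT at day 2 (-0.97, FDR 0.0107). Amt had only 1.26 CPM in KO day 0 A, so the size of its change from day 0 depends on few reads.

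The other subunits of the cleavage system did not show changes of that size. Gcsh, the carrier protein, averaged 35.9 CPM in WT at day 0 and 80.1 CPM at day 10, and 34.2 and 43.9 CPM in KO, with 154.6 CPM in ESCs. Its WT difference of 1.08 was not called (FDR 0.0653), nor was KO against WT at day 10 (-0.82, FDR 0.154). Dld, which also serves the pyruvate and other dehydrogenase complexes and was added after its values were seen, averaged 127 and 93.6 CPM in WT and 136 and 108 CPM in KO on those days (WT log2 -0.51, FDR 0.0950). So at day 10, Gldc and Amt were the subunits that differed between genotypes past the threshold in the fit without the block. Gcsh and Dld are not given with the block, and the differences between subunits were not tested. Several marker lists were also higher in WT than in KO at day 10. Summed CPM of 8 trophectoderm markers was 261 to 305 against 70.4 to 78.5 (Elf5 at 0 in both KO libraries), with 315 in ESCs. For 10 fibroblast markers it was 148 to 189.7 against 10.4 to 15.3 (Lum at 0 in all 4), with 295 in ESCs. Only 3 trophectoderm and 2 fibroblast markers reached 10 CPM in both WT libraries. The 4 endothelial markers summed to 55.7 to 65.5 against 26.5 to 31.9 CPM, with 18.6 in ESCs. Only the list of 7 neural markers went the other way, at 115 to 132 CPM in WT and 316 to 327 CPM in KO, with 168 in ESCs. The part of these lists in the rise of Gldc and Amt was not tested. Fewer cells of a type and less RNA per cell cannot be told apart in such bulk libraries.

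Shmt2, the mitochondrial serine hydroxymethyltransferase, was highest in KO at day 2. It stood at 134 and 171 CPM in WT at day 0, 141 and 195 CPM at day 2, and 139.6 and 146 CPM at day 10. In KO it stood at 169.6 and 237, 271 and 341, and 182 and 162 CPM. At day 2 both KO libraries exceeded both WT libraries, by a log2 fold change of 0.94 ± 0.20 (FDR 0.0196), and the day 10 difference of 0.32 was not called (FDR 0.283). The call at day 2 was lost with scaling by library totals alone (0.86, FDR 0.0649), in the fit on those groups alone (FDR 0.250), and without any 1 of WT day 2 A (0.77, FDR 0.177), WT day 2 B, KO day 2 B, KO day 10 A or KO day 10 B (FDR 0.0570 to 0.140 for these 4). The later drop in KO from day 2 to day 10 was -0.87 (FDR 0.0581, or 2.1e-05 with the block). With the block, Shmt2 was also called in KO against WT at day 0 (0.46, FDR 0.00236) and day 10 (0.32, FDR 0.0108), the day 10 value being the same without it. In KO it was called from day 0 to day 2 (0.59, FDR 3.7e-04) and to day 10 (-0.28, FDR 0.0265). It was called in WT from day 2 to day 10 (-0.24, FDR 0.0417) and in the day 2 interaction (0.49, FDR 0.0416).

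Shmt1, the cytosolic form, was not called between genotypes on any day. It stood at 89.5 and 66.9, 67.8 and 52.1, and 86.1 and 94.6 CPM in WT on the 3 days, and at 104 and 69.1, 70.8 and 51.1, and 80.7 and 75.2 CPM in KO. KO against WT was 0.20, 0.10 and -0.17 (FDR 0.912, 0.949 and 0.751), each with an SE of 0.31. Both genotypes had their lowest mean at day 2, where the differences from day 0 were -0.42 in WT and -0.52 in KO (FDR 0.626 and 0.490, or 0.00409 and 8.7e-04 with the block). With the block, Shmt1 was also called higher at day 10 than at day 2 in WT (0.58, FDR 1.0e-04) and in KO (0.33, FDR 0.0158), and in the day 10 interaction (-0.35, FDR 0.0421). Exons of Shmt1 lie opposite 184 bases of Smcr8, and those of Shmt2 opposite 32 bases of Ndufa4l2.

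Mthfd1, the cytosolic trifunctional enzyme, went from 625 and 612 CPM in WT at day 0 to 478 and 419.8 CPM at day 2 and 411 and 383 CPM at day 10. In KO it went from 573 and 461 CPM to 441 and 325, and then 449.8 and 434 CPM. The WT libraries did not overlap between day 0 and day 10, and the difference of -0.70 ± 0.26 had FDR 0.0672 (7.0e-05 with the block). KO against WT was -0.20, -0.15 and 0.20 at days 0, 2 and 10, none of them called. With the block, Mthfd1 was also called lower at day 2 than at day 0 in WT (-0.50, FDR 0.00345) and in KO (-0.45, FDR 0.00683), lower at day 10 than at day 0 in KO (-0.28, FDR 0.0493), and in the day 10 interaction (0.42, FDR 0.0418). The share of Mthfd1 in the summed TPM of the WT libraries was 41.8 and 42.8% at the start, against 22.0 and 19.0% by day 10. In KO it was 34.4 and 30.3%, then 32.6 and 35.1%.

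Mthfd1l, the mitochondrial formate-tetrahydrofolate ligase, was called in no comparison without the block. It stood at 98.9 and 122, 119.7 and 167, and 103 and 109 CPM in WT and at 102 and 126, 132 and 212, and 115 and 107 CPM in KO. Its means were highest at day 2 in both genotypes, by 0.34 in WT and 0.58 in KO over day 0 (FDR 0.531 and 0.195, or 0.0315 and 0.00119 with the block), and KO against WT did not exceed 0.33. With the block it was also called lower at day 10 than at day 2 in WT (-0.44, FDR 0.00241) and in KO (-0.65, FDR 4.5e-04), and higher in KO than in WT at day 2 (0.32, FDR 0.0282).

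Mthfd2, the mitochondrial methylenetetrahydrofolate dehydrogenase, had a genotype difference of opposite sign early and late in the course, as Gldc did. It stood at 42.8 and 28.7 CPM in WT at day 0, at 43.8 and 31.7 CPM at day 2 and at 86.5 and 85.3 CPM at day 10. In KO it stood at 97.8 and 68.7 CPM at day 0, at 131 and 80.9 CPM at day 2 and at 36.8 and 31.5 CPM at day 10, and the ESC library held 135 CPM. KO lay above WT with no overlap at days 0 and 2 and below WT with no overlap at day 10. At day 10 the genotypes also did not overlap for Gcat, Shmt1, Shmt2 and Mthfd1, which were not called there without the block. KO against WT was 1.27 ± 0.36 at day 0 (FDR 0.0697, or 2.9e-07 with the block), 1.56 ± 0.36 at day 2 (FDR 0.0263) and -1.29 ± 0.36 at day 10 (FDR 0.0247). The KO change from day 0 to day 2 was 0.33 (FDR 0.798, or 0.0224 with the block).

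The day 10 interaction of Mthfd2 was -2.55 ± 0.51 (FDR 0.0129). In WT the gene rose 2.28-fold from day 0 to day 10 (FDR 0.0316) and 2.22-fold from day 2 (FDR 0.0406). In KO it fell 2.57-fold from day 0 (FDR 0.0361) and 3.24-fold from day 2 (FDR 0.0455). These calls were close to the threshold and each depended on single libraries. The WT rise from day 0 had FDR 0.109 and 0.108 without WT day 10 A or B and 0.148 without WT day 0 B (log2 0.88), and KO against WT at day 10 had FDR 0.0777 to 0.134 without any 1 of its 4 libraries; the interaction had FDR 0.0572 without KO day 10 B (-2.40). The KO excess at day 2 had FDR 0.0532 to 0.160 without any 1 of WT day 2 A or B, WT day 10 B or KO day 2 A, with log2 values of 1.11 to 1.88, and 0.167 in the fit on the compared libraries. The WT rise from day 2 missed the threshold without any 1 of the 4 libraries compared or KO day 10 A or B (FDR 0.0555 to 0.192). The KO fall from day 0 missed it without any 1 of WT day 10 A or B, KO day 0 A or KO day 10 A or B (FDR 0.0633 to 0.187), and the KO fall from day 2 without any 1 of WT day 2 A or B, WT day 10 A or B, KO day 2 A or KO day 10 A or B (FDR 0.0560 to 0.222).

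**Figure D3:**
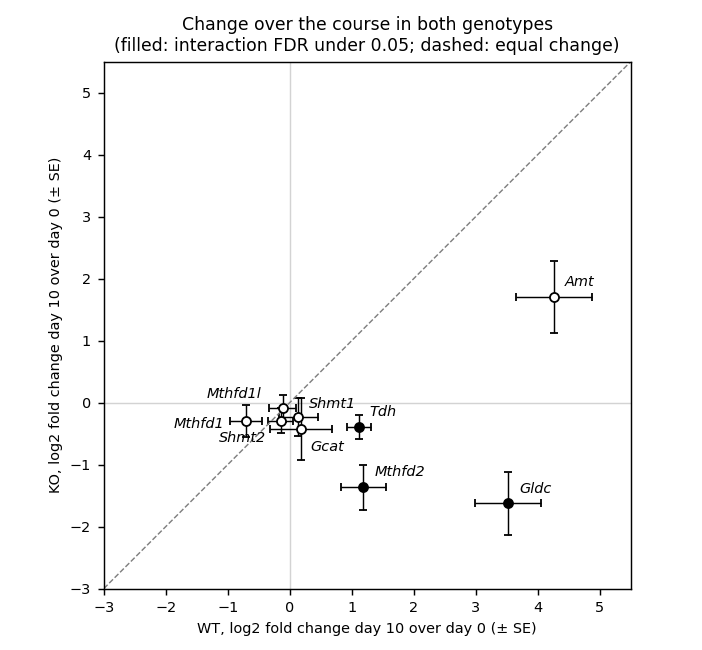
Log2 fold change from day 0 to day 10 in WT (horizontal) and in KO (vertical) for the 9 members, with the SE of the fit; the dashed line marks equal change, and filled points have an interaction FDR under 0.05. Gldc (3.52 in WT, -1.63 in KO), Mthfd2 (1.19, -1.36) and Tdh (1.12, -0.39) lie below the line with opposite signs in the genotypes, and Amt (4.27, 1.71) rises on both axes.

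Genes around the members were taken from fixed lists. The serine synthesis list (Phgdh, Psat1 and Psph, which make serine from a glycolytic intermediate) held 1 called gene of 3 in the 11 comparisons: Psph was higher in KO at day 2 (log2 1.84, FDR 0.0439; background 4.29%). Psph averaged 27.0, 30.5 and 35.9 CPM in WT over the 3 days and 80.2, 103.7 and 36.0 CPM in KO. Psat1 averaged 153, 165 and 240.3 CPM in WT and 324, 441 and 159.5 CPM in KO, with KO against WT at 1.13, 1.50 and -0.54 (FDR 0.241, 0.0940 and 0.448). On the same days KO against WT was 0.55, 1.14 and -0.68 for Phgdh, not called on any day, and 1.62, 1.84 and 0.05 for Psph. Psph thus did not change sign. The values of Mthfd2 were 1.27, 1.56 and -1.29, and their relation to the list was not tested.

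In the list of 9 amino acid stress and MYC genes, 4 were higher in KO than in WT at day 2 (Atf5, Chac1, Mycn and Trib3; background 4.29%) and 0 lower. At day 10, 5 were lower (Asns, Chac1, Ddit3, Mycn and Trib3, background 19.9%) and 1 was higher (Atf5, background 12.4%). At day 0, Chac1 was higher (background 2.69%) and Mycn lower (background 5.59%). Chac1, a glutathione-degrading enzyme induced by amino acid stress, averaged 1.24, 3.77 and 8.09 CPM in WT and 8.56, 30.9 and 1.76 CPM in KO (KO against WT 2.84, 3.11 and -2.15; FDR 0.00162, 8.1e-04 and 0.00188). Trib3, a pseudokinase of the same response, averaged 6.98, 15.5 and 31.8 CPM in WT and 10.8, 43.4 and 6.19 CPM in KO. Ddit3, a stress transcription factor, averaged 18.2 CPM in WT and 6.95 CPM in KO at day 10. The day 10 interaction called 5 of the 9 lower (Asns, Chac1, Ddit3, Mycn and Trib3; background 6.20%) and 0 higher. The members and this list were not compared by a test.

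**Figure D4:**
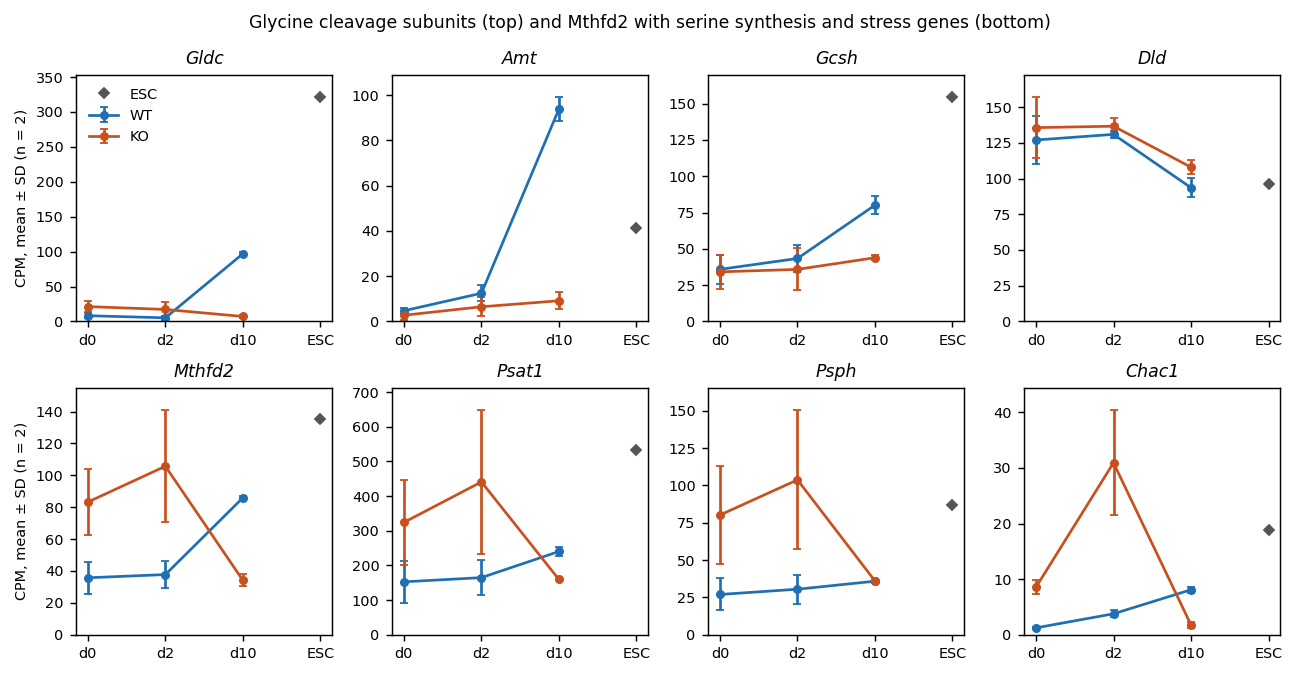
Mean CPM with the SD of 2 libraries at days 0, 2 and 10 in WT and KO and the single ESC library, on linear axes from 0; the top row shows the glycine cleavage subunits and the bottom row Mthfd2 with Psat1 and Psph of serine synthesis and the stress gene Chac1. In the bottom row the KO mean is above WT at days 0 and 2 in each panel, and at day 10 it is below WT for Mthfd2, Psat1 and Chac1 and at 36.0 against 35.9 CPM for Psph.

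Among 15 other folate cycle enzymes, 3 were higher and 2 lower in KO at day 10, where 12.4% and 19.9% of all genes were (median of the list -0.05). In WT from day 0 to day 10, 1 rose and 3 fell (background 21.0% and 13.1%, median of the list -0.11). Mthfd2l, the isozyme of Mthfd2, went the other way from it in WT, from 37.6 CPM at day 0 to 5.66 CPM at day 10 (log2 -2.78, FDR 2.5e-05), while KO averaged 61.6, 56.0 and 36.6 CPM over the 3 days and was above WT on each (0.77, 0.88 and 2.74; FDR 0.0168, 0.00774 and 5.6e-05). Aldh1l1, the cytosolic formyltetrahydrofolate dehydrogenase, averaged 0.403 CPM in WT at day 0 and 24.4 CPM at day 10 (log2 5.86, FDR 2.4e-05), against 1.92 CPM in KO at day 10 and 5.13 CPM in ESCs. Its mitochondrial counterpart Aldh1l2 averaged 6.59 CPM in WT and 21.1 CPM in KO at day 10 (KO against WT 1.73, FDR 0.00647). Mtr, methionine synthase, averaged 74.7 CPM in WT and 123 CPM in KO at day 10 (0.76, FDR 0.0119).

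Of the 9 tested genes in a list of 13 for other glycine and threonine breakdown, 4 rose and 1 fell in WT from day 0 to day 10 (background 21.0% and 13.1%). Between genotypes at day 10, 1 was higher and 2 were lower in KO (background 12.4% and 19.9%). Tha1, threonine aldolase, which splits threonine by another route, averaged 14.3 CPM in WT at day 0 and 2.99 CPM at day 10 (log2 -2.31, FDR 7.4e-04), against 10.5 CPM in KO at day 10 (KO against WT 1.86, FDR 0.00250). Gamt and Gatm, the enzymes of creatine synthesis from glycine, were called higher in WT at day 10 but averaged only 2.36 and 1.81 CPM there. In KO from day 0 to day 10, Gamt was also called higher (2.47, FDR 0.00271) and Gatm was not called (0.28, FDR 0.680). Neither was called between genotypes at day 10 (0.12 and 0.24, FDR 0.824 and 0.666).

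Of 15 tested transport genes, 1 was higher and 3 were lower in KO at day 10 (background 12.4% and 19.9%). Slc6a9, a glycine transporter of the plasma membrane, averaged 4.39, 5.10 and 9.08 CPM in WT and 14.7, 21.4 and 2.21 CPM in KO, with a day 10 interaction of -3.78 (FDR 0.0242). Slc25a38, the mitochondrial glycine carrier, averaged 41.3 CPM in WT at day 0 and 15.5 CPM at day 10 (log2 -1.46, FDR 0.00337). Folr1, a folate receptor, averaged 33.8, 133 and 94.2 CPM in WT and 3.80, 26.9 and 30.6 CPM in KO, and KO was lower on each day (-3.11, -2.25 and -1.58; FDR 2.9e-04, 8.1e-04 and 0.00140). Slc46a1, the proton-coupled folate transporter, averaged 11.1 CPM in WT and 3.42 CPM in KO at day 10 (-1.65, FDR 0.00444).

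Of 11 tested methionine cycle and transsulfuration genes, 5 rose (background 21.0%) and 0 fell in WT from day 0 to day 10, and 3 were lower (background 19.9%) and 0 higher in KO at day 10; Ahcyl2, related to the hydrolase of S-adenosylhomocysteine, averaged 46.6 CPM in WT and 22.4 CPM in KO there. Of 16 purine and thymidylate genes, 2 rose (background 21.0%) and 0 fell in WT over the same span. The same 2 names, Adssl1 and Dctd, were lower in KO at day 10 (background 19.9%), a comparison that shares the WT day 10 libraries. Adssl1, an adenylosuccinate synthase, averaged 13.6 CPM in WT and 2.08 CPM in KO at day 10, and Dctd, dCMP deaminase, 54.5 and 35.2 CPM. The median log2 fold change of KO against WT at day 10 was -0.29 for the methionine list and -0.08 for the purine list.

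Among 13278 named genes, the profiles most like that of Tdh, measured by the root mean square difference of centred log2 CPM over the 13 libraries, were those of Rogdi (0.246), Rffl (0.285), Morc3 (0.302), Acot8 (0.303) and Esrp2 (0.307), where the median gene lay at 0.795. The profiles most like that of Gldc were those of Slc43a1 (0.395), Lrp3 (0.470), Vash1 (0.474), Faah (0.499) and Fam13c (0.536), with a median gene at 1.93. All 5 of the latter had their highest mean in ESCs and their next highest in WT at day 10, for example 24.6 and 10.5 CPM for Slc43a1. Amt lay at 1.50 from Gldc and Mthfd2 at 1.45, so neither was among the nearest. These distances describe 13 libraries, of which 12 came from pre-iPSCs and 1 from ESCs, and carry no test.

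Set against the single ESC library, WT at day 10 reached 30.2% of the ESC level of Gldc, 63.5% for Mthfd2, 153% for Tdh and 227% for Amt. KO at day 10 stood at 2.22%, 25.2%, 63.6% and 22.1% for these genes. For the other 5 members, WT at day 10 lay between 73.8% (Shmt1) and 97.8% (Mthfd1) of the ESC level and KO between 63.7% (Shmt1) and 111% (Shmt2). The ESC library has no replicate, so no difference from it was tested.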

How the data were processed

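RNA-seq libraries of 12 pre-iPSC samples and 1 ESC sample were analysed. Per the submitters' processing notes, the authors aligned reads with Bowtie2 to mm9 and estimated counts with RSEM, with versions not given in the sources used here. The deposited expected counts share reads among transcripts (35.0 to 43.8% of values were not whole, at a tolerance of 0.005), and the deposited TPM values are per length. Groups come from the labels. For testing, the counts were rounded, and edgeR 4.0.16 under R 4.3.3 ran its quasi-likelihood test (filterByExpr, TMM factors of 0.922 to 1.06, a single fit over 6 groups with 6 residual degrees of freedom, Benjamini-Hochberg adjustment over 14324 genes). CPM uses library totals. The fit was tested on simulated counts drawn independently for each library, without the A and B difference at days 0 and 2. That check does not cover the shared difference. Intervals and SE cover only the spread between these libraries. Statements that groups of 2 libraries do not overlap are descriptions, and the share of all genes without overlap was not computed.

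The deviations of A and B from their group means correlated at 0.741 to 0.812 between all pairs of day 0 and day 2 groups and at -0.0610 to 0.0492 for pairs with a day 10 group. The letters were therefore taken to pair samples at days 0 and 2, from the data and not the labels. The fit with that block is given beside the members whose call it changes, and pathway genes are given without it. The block leaves day 10 libraries unadjusted, so calls between genotypes at day 10 change with it through the spread estimate shared by all groups. Counts of A and B differed by more than sampling noise in each group (chi-square per degree of freedom 8.06 to 253).

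Alternatives were RLE size factors, library totals, no filter, DESeq2 1.42.0, a block over all days or over days 0 and 2, the compared libraries only, TMM-scaled levels and leaving out each library. All members are named; of each pathway list, up to 4 genes with the lowest FDR in WT day 10 against day 0 or KO against WT at day 10 and a mean of at least 1 CPM. Members, lists and alternatives were chosen with earlier results of these data known. Promoter windows and exon overlaps come from RefSeq and GENCODE M21 on GRCm38, a build other than that of the counts.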

Additional observations from a re-analysis of the deposited data

Results flagged for a closer look

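The change from day 0 to day 10 differed between genotypes for 3 members by the interaction test of the edgeR fit. Gldc had an interaction of -5.15 on the log2 scale, from a rise in both WT libraries and lower values in both KO libraries. Mthfd2 had an interaction of -2.55, with higher values at day 10 in both WT libraries and lower values in both KO libraries than in either library of day 0. Tdh had an interaction of -1.50, with both WT libraries higher and both KO libraries lower at day 10 than at day 0.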

How the results depend on the processing

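RLE size factors and no filter on low counts left the number of members called in each comparison as reported. Library totals alone called 1 member in WT between days 0 and 2 and 1 for KO over WT at day 0, where 0 were reported. DESeq2 called 1 in WT between days 0 and 2, 3 in KO between days 0 and 10, 2 in KO between days 2 and 10, 1 for KO over WT at day 0 and 1 for the day 2 interaction. The fit on the compared libraries called 0 in KO between days 0 and 2, 0 in KO between days 2 and 10, 0 for KO over WT at day 2 and 6 for KO over WT at day 10. Direction in these alternatives was checked in all comparisons of Tdh, Gldc, Amt and Mthfd2. For the other members it was checked where the unadjusted p was under 0.05 or the value lay at an end of the member's range. None of the checked values changed direction. Over all genes, the compared libraries alone called 119, 0, 1042, 0, 141, 79 and 8554 genes in WT day 2 against 0, KO day 2 against 0, KO day 10 against 0, KO day 10 against 2 and KO over WT at days 0, 2 and 10, where 759, 915, 2165, 444, 1187, 1498 and 4628 were reported. DESeq2 called 1434, 1516, 1325, 220 and 2704 in WT day 2 against 0, KO day 2 against 0, KO day 10 against 2 and the day 2 and day 10 interactions (reported 759, 915, 444, 28 and 1798), and the compared libraries alone called 0 for the day 2 interaction.

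With a replicate block over all days, the members called were 1 in WT between days 0 and 2, 3 in KO between days 0 and 10, 2 in KO between days 2 and 10, 2 for KO over WT at day 0 and 1 for the day 2 interaction. With a replicate block at days 0 and 2 only, they were 6 in WT between days 0 and 2, 6 between days 0 and 10 and 7 between days 2 and 10, in KO 7, 7 and 6 for the same spans, 4, 6 and 6 for KO over WT at days 0, 2 and 10, and 2 and 7 in the interactions at days 2 and 10. That block also raised the calls over all genes, to 4318, 9412 and 8984 in WT for the 3 spans (reported 759, 4889 and 4227), to 4225, 6840 and 5328 in KO (915, 2165 and 444), to 4360, 5252 and 9136 between genotypes on the 3 days (1187, 1498 and 4628) and to 1109 and 6388 for the interactions (28 and 1798). The block over all days called 1433, 1478, 3284, 1152, 1792, 2293, 91 and 2942 genes in WT day 2 against 0, KO day 2 against 0, day 10 against 0 and day 10 against 2, the genotypes at days 0 and 2, and the interactions. It took no reported call of a member away.

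Leaving out 1 library leaves its group with a lone sample, which is assumed to vary like the other groups. The members called then ran from 0 to 1 in KO between days 0 and 2, 0 to 2 between days 0 and 10, 0 to 1 between days 2 and 10, 0 to 1 for KO over WT at day 0, 1 to 3 at day 2, 3 to 4 at day 10, 3 to 5 in WT between days 0 and 10 and 2 to 4 in the day 10 interaction. Uncalled values near 0 changed sign: Mthfd2 ran from -0.27 to 0.43 in WT between days 0 and 2, from -0.12 to 0.68 in KO, and from -0.16 to 0.63 in the day 2 interaction. Gldc ran from -1.07 to 0.14 in KO between days 0 and 2 and from -0.39 to 0.93 in the day 2 interaction, Amt from -0.052 to 1.34 in KO between days 2 and 10 and from -1.004 to 0.91 in the day 2 interaction, and Gcat from -0.29 to 0.92 for KO over WT at day 0 and from -1.19 to 0.0355 in the day 10 interaction. The cause was not tested.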
